A study of Mus musculus with 82 samples.

Results

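The stress keratins Krt6a, Krt6b, Krt16 and Krt17 were followed as the 4 genes whose names match this group among the 56941 genes of each deposited table, and all 4 passed the filter on low counts in both experiments. Keratins are the filament proteins of epithelial cells, and each filament pairs a type II keratin, here Krt6a or Krt6b, with a type I keratin, here Krt16 or Krt17. In resting skin the interfollicular epidermis is built from Krt5 and Krt14 in its basal layer and Krt1 and Krt10 above it, while the stress keratins are largely held to hair follicles and other appendages. They appear in the epidermis after wounding and in psoriasis, and cytokines of the IL-17, IL-20 and EGF families are known to raise them in keratinocytes.

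Expression was measured by bulk RNA sequencing of right ear punches from female C57BL/6J Rj mice. In the time course, ears treated with imiquimod cream and IDOR-1117-2520, with imiquimod alone, or with sham treatment were sampled at days 2, 5 and 8, giving 52 libraries in 9 groups of 6 each, except 4 sham libraries at day 5. In the start-day experiment, 30 libraries fell into 5 groups of 6: imiquimod with IDOR-1117-2520 from day 0, from day 3 or from day 5, imiquimod alone, and sham. The sham libraries carry the word vehicle in their treatment label. Imiquimod (5% cream) activates the receptor TLR7 and produces a skin inflammation used as a model of psoriasis. It was applied to the ears once a day from day 0 to day 7, so the ears sampled at days 2 and 5 were taken during the applications. IDOR-1117-2520 blocks CCR6, a chemokine receptor that guides IL-17 producing T cells into skin. A treatment text common to all samples says that it was given in drinking water, beginning a day or more ahead of the imiquimod and lasting to the end, while the labels of the start-day groups put the start at day 0, 3 or 5. For the start-day groups the label for time of treatment reads day 8, 5 and 3 for starts at day 0, 3 and 5, and the day of sampling is not given separately. Ears that received imiquimod and the drug are called drug-treated ears here. The labels do not say that each library came from its own animal, and the spread behind each p-value may therefore be technical.

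Depth per library was 13.1 to 35.4 M counts over the time course and 24.1 to 35.5 M over the start-day experiment. Levels are given as CPM (counts scaled to a common library size, with TMM factors from edgeR), as the lowest, the median and the highest library of a group or as the mean with its SD. Fold changes are log2 values with their standard error from the edgeR quasi-likelihood test, and a change was called at an adjusted p under 0.05 over all genes tested (18780 for the time course, 18434 for the start-day experiment). A punch mixes many cell types, so fewer cells of a type and less RNA per cell cannot be told apart. The epidermal markers Krt5 and Krt14 were abundant in every group, and 0 of the 6 keratinocyte markers checked (Krt5, Krt14, Trp63, Dsp, Cdh1 and Perp) were at 0 in any group.

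The 4 genes lie in the 2 keratin gene clusters of the mouse genome. Krt6b and Krt6a are neighbours on chromosome 15, with Krt5 on the other side of Krt6a. Krt16 and Krt17 are neighbours on chromosome 11, between Krt14 and Krt42. The coding sequences of Krt6a and Krt6b were 97.6% identical, with 37 mismatches, and their longest run without a difference was 280 bases. The stretch below, coding positions 787 to 876 of both genes, holds the most differences of any window of 90 bases. It has 12 of the 37 mismatches, and reads over the others can be told apart too. The sequences come from the GENCODE vM21 transcripts (GRCm38), are written 5′ to 3′ on the coding strand, and carry the 12 differing bases in capitals.
Krt6a: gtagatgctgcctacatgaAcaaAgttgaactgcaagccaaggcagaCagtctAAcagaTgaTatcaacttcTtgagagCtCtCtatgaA
Krt6b: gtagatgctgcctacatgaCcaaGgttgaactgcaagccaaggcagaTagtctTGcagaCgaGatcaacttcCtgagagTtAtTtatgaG
Of the 31-base words in the Krt6a transcript 49.3% also occurred in Krt6b, and of those in the Krt6b transcript 50.3% occurred in Krt6a. The counts are salmon estimates that divide shared reads between such copies, so the values of Krt6a and Krt6b are uncertain as single genes. Krt16 and Krt17 were less alike, with 70.9% identity of their coding sequences, and only 2.21% of the words of Krt16 occurred in Krt17. Krt16 shared 32.2% of its words with Gm11597, a gene model that did not exceed 7.29 CPM in any time course library, and Krt17 shared 11.8% with Krt14. Over all other genes, 55.1% of the words of Krt6a, 57.0% of those of Krt6b, 51.9% of those of Krt16 and 15.8% of those of Krt17 occurred elsewhere, so Krt16 too is uncertain as a single gene where reads are shared.

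Single sham libraries stood apart from their groups before any comparison. In sham library 5 of day 2, Krt6a was at 382 CPM, Krt6b at 294 CPM, Krt16 at 227 CPM and Krt17 at 342 CPM, each the highest of the 6. The sham medians of that day were 49.7 CPM for Krt6a, 2.08 CPM for Krt6b, 22.9 CPM for Krt16 and 212 CPM for Krt17. In the start-day experiment, sham library 1 was highest for Krt6a (89.2 CPM), Krt6b (31.5 CPM) and Krt16 (38.8 CPM). Fold changes and ratios against these sham groups are given with and without those libraries.

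In sham ears the members differed in level by a wide margin. Per kilobase of transcript, Krt17 averaged 134 CPM at day 5, Krt6a 21.8 CPM, Krt16 6.44 CPM and Krt6b 0.666 CPM, so Krt17 was the most abundant stress keratin of unprovoked ear skin and Krt6b the least. In imiquimod ears of the same day Krt16 averaged 4678 CPM per kilobase, Krt6a 3851 CPM, Krt6b 3625 CPM and Krt17 920 CPM, so Krt17 was the lowest of the 4. Together the members took 0.951% ± 0.392 of all counts in drug-treated ears at day 5, 2.41% ± 0.26 in imiquimod ears and 0.0289% ± 0.0018 in sham ears (SD, n = 6, 6 and 4).

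Imiquimod raised all 4 keratins at every day and in both experiments. Krt6a, a type II keratin of follicles and of activated epidermis, was at 1012, 2121 and 4354 CPM in imiquimod ears of day 2 (lowest, median, highest), against 33.3, 49.7 and 382 CPM in sham ears. At day 5 it was at 7002, 8776 and 10777 CPM in imiquimod ears, against 50.6, 45.2, 48.1 and 54.4 CPM in the 4 sham ears. At day 8 it was at 3226, 4387 and 5433 CPM in imiquimod ears, against 47.3, 50.5 and 69.7 CPM in sham ears. No imiquimod library came down to the highest sham library of its day. Krt6b, its near-identical neighbour, was almost silent without imiquimod. It was at 462, 1238 and 3801 CPM in imiquimod ears of day 2, against 0.457, 2.08 and 294 CPM in sham ears. At day 5 it was at 6720, 8140 and 9215 CPM in imiquimod ears, against 1.48, 1.34, 1.41 and 1.72 CPM in the sham ears. At day 8 it was at 3136, 3866 and 4847 CPM in imiquimod ears, against 1.67, 3.17 and 6.68 CPM in sham ears. Imiquimod and sham ears again did not overlap, and Krt6b in imiquimod ears stood near Krt6a at day 5 and day 8.

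Krt16, the type I keratin that pairs with Krt6 in thickened epidermis, was at 1178, 1875 and 4021 CPM in imiquimod ears of day 2, against 7.38, 22.9 and 227 CPM in sham ears. At day 5 it was at 5904, 7343 and 8057 CPM in imiquimod ears, against 7.54, 8.89, 12.7 and 11.2 CPM in the sham ears. At day 8 it was at 4629, 5409 and 6172 CPM in imiquimod ears, against 13.5, 16.2 and 22.97 CPM in sham ears. Every imiquimod library lay above every sham library of its day. Krt17, a type I keratin that also builds the outer root sheath of the follicle, was at 455, 794 and 1225 CPM in imiquimod ears of day 2, against 179, 212 and 342 CPM in sham ears. At day 5 it was at 1225, 1397 and 1625 CPM in imiquimod ears, against 189, 205, 232 and 203 CPM in the sham ears. At day 8 it was at 1023, 1138 and 1291 CPM in imiquimod ears, against 186, 225 and 265 CPM in sham ears. The Krt17 groups did not overlap on any day, but its distance from sham was the smallest of the members.

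**Figure D1:**
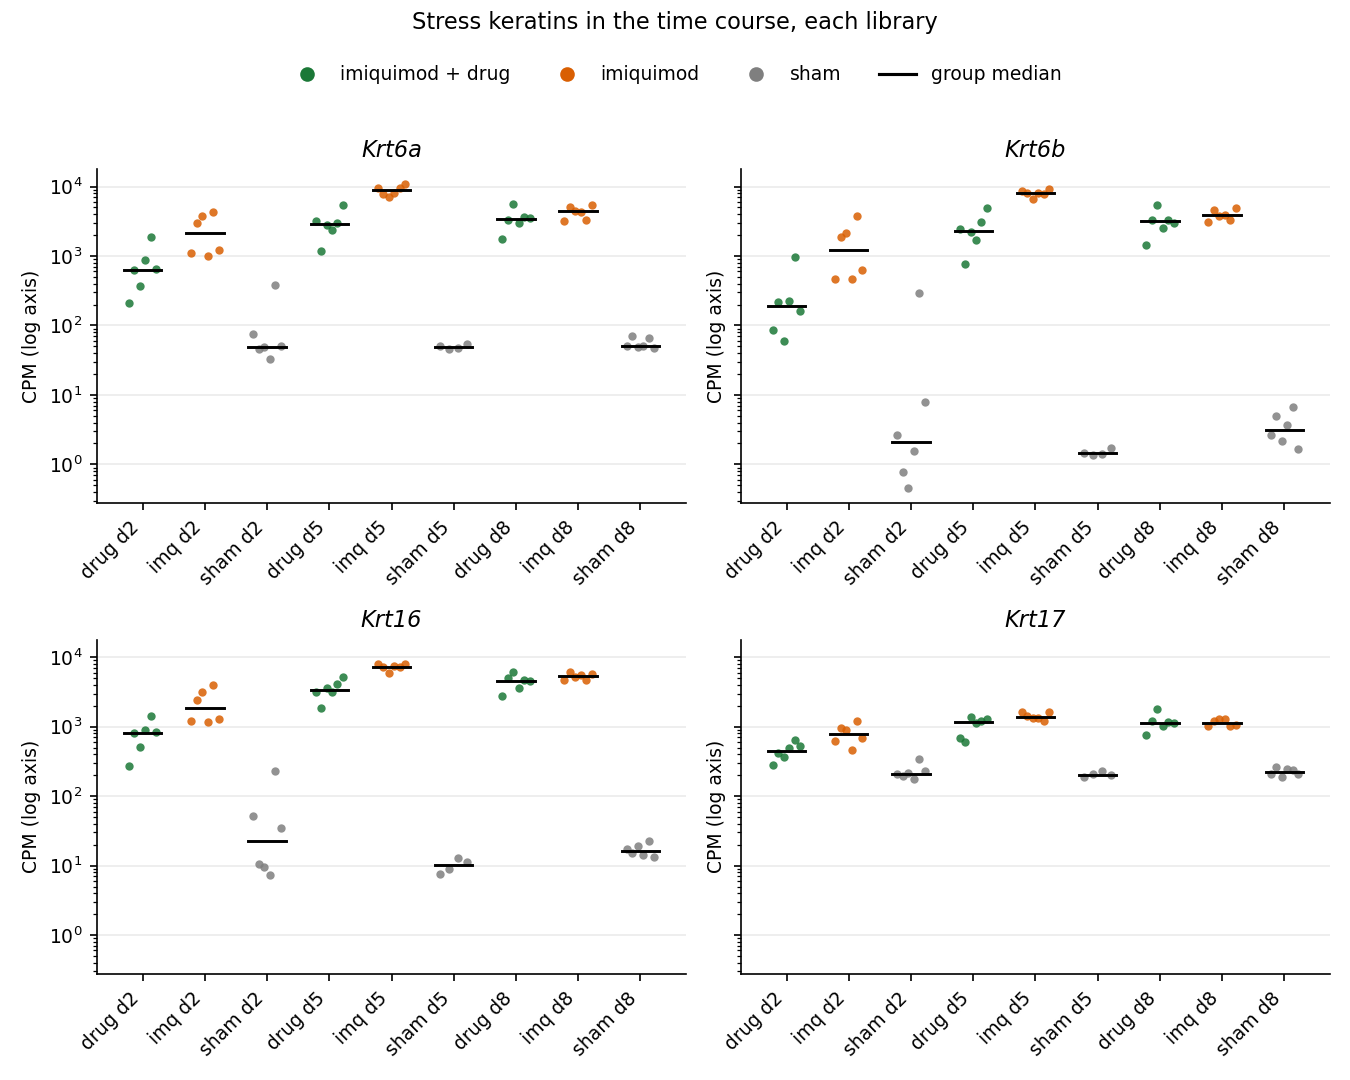
CPM (log axis) of Krt6a, Krt6b, Krt16 and Krt17 in each time course library, by day (d) and treatment (drug, imiquimod shortened to imq, sham). Points are libraries and bars group medians. Imiquimod groups lie above the sham groups of their day for all 4 genes, and at day 8 the drug and imiquimod groups overlap.

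As log2 fold changes of imiquimod over sham at day 2, Krt6a was up 4.51 ± 0.51 (edgeR adjusted p = 3.9e-10), Krt6b 4.94 ± 0.90 (8.3e-06), Krt16 5.30 ± 0.54 (2.9e-11) and Krt17 1.83 ± 0.21 (3.4e-10). Without sham library 5 these fold changes were 5.57, 9.25, 6.61 and 1.98. At day 5 they were 7.47 ± 0.71 for Krt6a, 12.40 ± 1.55 for Krt6b, 9.50 ± 0.80 for Krt16 and 2.78 ± 0.25 for Krt17. At day 8 they were 6.27 ± 0.56, 10.11 ± 1.16, 8.30 ± 0.63 and 2.34 ± 0.21 in the same order. All 4 members were called higher on each day, where 29.2%, 34.6% and 34.5% of all genes tested were called higher at days 2, 5 and 8. All 4 also had groups that did not overlap on each day, as did 18.8%, 29.2% and 25.8% of all genes in that direction. With so large a share of the genes raised by imiquimod, a call alone does not set the members apart.

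Imiquimod ears stood far above sham ears in the start-day experiment as well. Krt6a was at 6147, 7603 and 8397 CPM in imiquimod ears, against 42.8, 51.1 and 89.2 CPM in sham ears. Krt6b was at 7311, 8306 and 9068 CPM in imiquimod ears, against 0.856, 1.75 and 31.5 CPM in sham ears. Krt16 was at 7656, 8532 and 8915 CPM in imiquimod ears, against 4.23, 10.01 and 38.8 CPM in sham ears. Every imiquimod library again exceeded every sham library. Krt17 was at 1276, 1397 and 1611 CPM in imiquimod ears, against 193, 202 and 213 CPM in sham ears. The log2 fold changes were 7.04 ± 0.23, 10.37 ± 0.66, 9.26 ± 0.39 and 2.82 ± 0.14 for Krt6a, Krt6b, Krt16 and Krt17, and 7.23, 12.39, 9.88 and 2.82 without sham library 1. All 4 were called higher, as were 38.1% of all genes, and had groups that did not overlap, as did 30.3%.

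The difference between imiquimod and sham ears varied with the day for all 4 members, with adjusted p of 0.0027 for Krt6a, 1.3e-04 for Krt6b, 3.6e-05 for Krt16 and 0.037 for Krt17 (edgeR F test on the differences, where 33.4% of all genes were called). For Krt6b this call rests on sham library 5 of day 2, without which its adjusted p was 0.058, and for Krt17 it was lost on leaving out any of 9 single libraries. In imiquimod ears all 4 rose further between day 2 and day 5, by log2 1.86 ± 0.46 for Krt6a, 2.38 ± 0.79 for Krt6b, 1.72 ± 0.46 for Krt16 and 0.82 ± 0.20 for Krt17, where 22.6% of all genes were called higher. Between day 5 and day 8 the imiquimod medians of all 4 were lower, but the log2 differences of -1.03 for Krt6a (adjusted p = 0.13), -1.04 for Krt6b (0.41), -0.45 for Krt16 (0.57) and -0.31 for Krt17 (0.34) were not called, where 5.88% of all genes were called lower. The libraries of the 2 days did not overlap for Krt6a or Krt6b. In a fit of these 2 groups alone the differences of all 4 members kept their size and were called.

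In drug-treated ears the members likewise rose between day 2 and day 5, by log2 1.98 for Krt6a, 3.13 for Krt6b, 2.15 for Krt16 and 1.21 for Krt17, where 20.9% of all genes were called higher. Between day 5 and day 8 they differed by log2 0.17 to 0.34 with 0 of 4 called, where 5.52% of all genes were called in either direction. In sham ears Krt6b and Krt16 were called lower at day 8 than at day 2, by log2 -3.84 and -1.74, where 3.37% of all genes were called lower. Without sham library 5 of day 2 those differences were 0.47 and -0.42 and were not called (adjusted p = 0.83 and 0.63). Ordered by mean log2 CPM, each of the 4 members had the same leading groups in the time course: imiquimod day 5, imiquimod day 8, drug day 8, drug day 5, imiquimod day 2, drug day 2 and then the sham groups. Neighbours in that order overlapped, except that imiquimod day 5 stood clear of imiquimod day 8 for Krt6a and Krt6b, drug day 2 stood clear of the next sham group for Krt16 (day 2) and Krt17 (day 8), and sham day 8 stood clear of sham day 5 for Krt16. In the start-day experiment imiquimod led for every member, clear of the next group except for Krt17, the 3 drug groups overlapped one another, and all stood clear of sham.

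The drug lowered the stress keratins relative to imiquimod alone at day 2. Krt6a was at 208, 633 and 1868 CPM in drug-treated ears, against 1012, 2121 and 4354 CPM in imiquimod ears. Krt6b was at 60.7, 189 and 976 CPM in drug-treated ears, against 462, 1238 and 3801 CPM in imiquimod ears. Krt16 was at 269, 813 and 1442 CPM in drug-treated ears, against 1178, 1875 and 4021 CPM in imiquimod ears. The highest drug-treated libraries reached into the range of the imiquimod libraries for each of these keratins. Krt17 was at 278, 449 and 653 CPM in drug-treated ears, against 455, 794 and 1225 CPM in imiquimod ears, and these groups overlapped too. The log2 differences were -1.66 ± 0.45 for Krt6a (edgeR adjusted p = 0.0099), -2.43 ± 0.80 for Krt6b (0.030), -1.49 ± 0.46 for Krt16 (0.022) and -0.84 ± 0.20 for Krt17 (0.0043). The drug means were 31.6%, 18.5%, 35.7% and 56% of the imiquimod means. All 4 were called lower, where 9.61% of all genes were, and 0 of 4 had groups without overlap, where 0.777% of all genes did.

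The day 2 calls depend on the libraries and groups in the fit. Imiquimod libraries 8, 9 and 11 held 3027, 3770 and 4354 CPM of Krt6a, and libraries 7, 10 and 12 held 1098, 1012 and 1215 CPM. With libraries 9 and 11 left out the differences were -1.06 for Krt6a (adjusted p = 0.27), -1.57 for Krt6b (0.37), -0.95 for Krt16 (0.35) and -0.60 for Krt17 (0.17). In a fit of the drug and imiquimod libraries of day 2 alone they kept their size at -1.67, -2.44, -1.49 and -0.84, with adjusted p of 0.10, 0.094, 0.078 and 0.078.

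At day 5 the difference was clearest for Krt6a. It was at 1192, 2911 and 5500 CPM in drug-treated ears, against 7002, 8776 and 10777 CPM in imiquimod ears, with a log2 difference of -1.55 ± 0.45 (adjusted p = 0.0063). Krt6b was at 775, 2323 and 4955 CPM in drug-treated ears, against 6720, 8140 and 9215 CPM in imiquimod ears (log2 -1.68 ± 0.78, adjusted p = 0.087). Krt16 was at 1872, 3386 and 5201 CPM in drug-treated ears, against 5904, 7343 and 8057 CPM in imiquimod ears (log2 -1.06 ± 0.45, adjusted p = 0.065). The groups of Krt6a, Krt6b and Krt16 did not overlap, as was so for 5.47% of all genes in this direction. Krt17 was at 594, 1162 and 1398 CPM in drug-treated ears, against 1225, 1397 and 1625 CPM in imiquimod ears, with overlap (log2 -0.45 ± 0.20, adjusted p = 0.078). Only Krt6a of the 4 was called, where 17.2% of all genes were called lower. In a fit of these 2 groups alone Krt6b and Krt16 were called too (-1.68, adjusted p = 0.0044, and -1.06, adjusted p = 0.0020).

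At day 8 of the time course the drug and imiquimod ears overlapped for all 4 members. Krt6a was at 1743, 3463 and 5530 CPM in drug-treated ears, against 3226, 4387 and 5433 CPM in imiquimod ears, and Krt17 was at 750, 1145 and 1794 CPM in drug-treated ears, against 1023, 1138 and 1291 CPM in imiquimod ears. Krt6b was at 1427, 3177 and 5441 CPM in drug-treated ears, against 3136, 3866 and 4847 CPM in imiquimod ears. Krt16 was at 2778, 4611 and 6065 CPM in drug-treated ears, against 4629, 5409 and 6172 CPM in imiquimod ears. Drug-treated ears had both the lowest library of each gene and, except for Krt16, the highest. The log2 differences were -0.31 ± 0.44 for Krt6a, -0.30 ± 0.76 for Krt6b, -0.27 ± 0.45 for Krt16 and 0.03 ± 0.20 for Krt17 (adjusted p = 0.82, 0.91, 0.85 and 0.97). None of the 4 was called at day 8, where 0.335% of all genes were called lower and 0.628% had groups without overlap. The drug effect itself was not called as different among the days for any member (adjusted p = 0.097 to 0.37), where 7.99% of all genes were.

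The drug lowered Krt6a at all 3 start days of the start-day experiment. Krt6a was at 2200, 2969 and 3680 CPM with the drug from day 0, at 2403, 2686 and 3419 CPM from day 3 and at 1972, 3427 and 5001 CPM from day 5, against 6147, 7603 and 8397 CPM in imiquimod ears. The log2 differences were -1.34 ± 0.18 (adjusted p = 3.0e-06), -1.36 ± 0.18 (3.3e-06) and -1.13 ± 0.18 (5.1e-05). Every drug-treated library of each start lay below every imiquimod library. Krt6b was at 2587, 3258 and 4179 CPM from day 0, at 2359, 3072 and 3872 CPM from day 3 and at 2115, 3883 and 5494 CPM from day 5, against 7311, 8306 and 9068 CPM in imiquimod ears. Its log2 differences were -1.31 ± 0.44 (adjusted p = 0.021), -1.38 ± 0.44 (0.016) and -1.09 ± 0.43 (0.064, not called). Krt6b groups did not overlap with imiquimod at any start.

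Krt16 was at 4365, 4729 and 5293 CPM from day 0, at 4308, 4893 and 5599 CPM from day 3 and at 3769, 5540 and 6704 CPM from day 5, against 7656, 8532 and 8915 CPM in imiquimod ears, with no overlap. Its log2 differences were -0.80 ± 0.27 (adjusted p = 0.021), -0.76 ± 0.27 (0.029) and -0.62 ± 0.27 (0.087, not called). By DESeq2 the Krt16 calls from day 0 and day 3 were lost (adjusted p = 0.066 and 0.083). Krt17 was at 759, 906 and 1278 CPM from day 0, at 952, 1142 and 1314 CPM from day 3 and at 675, 1035 and 1440 CPM from day 5, against 1276, 1397 and 1611 CPM in imiquimod ears. Its log2 differences were -0.59 ± 0.13 (adjusted p = 7.5e-04), -0.32 ± 0.13 (0.052, not called) and -0.43 ± 0.13 (0.013), and its highest drug-treated libraries overlapped the imiquimod group at each start. So 4 of 4 members were called lower from day 0, 3 of 4 from day 3 and 2 of 4 from day 5, where 16.9%, 16.4% and 12.7% of all genes were called lower. At each start 3 of 4 had groups without overlap, where 7.87%, 7.65% and 5.01% of all genes did. The 3 comparisons share their imiquimod libraries. The drug means of Krt6a were 39.4%, 38.8% and 45.8% of the imiquimod mean, and those of Krt17 were 66.4%, 79.9% and 74.1%.

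**Figure D2:**
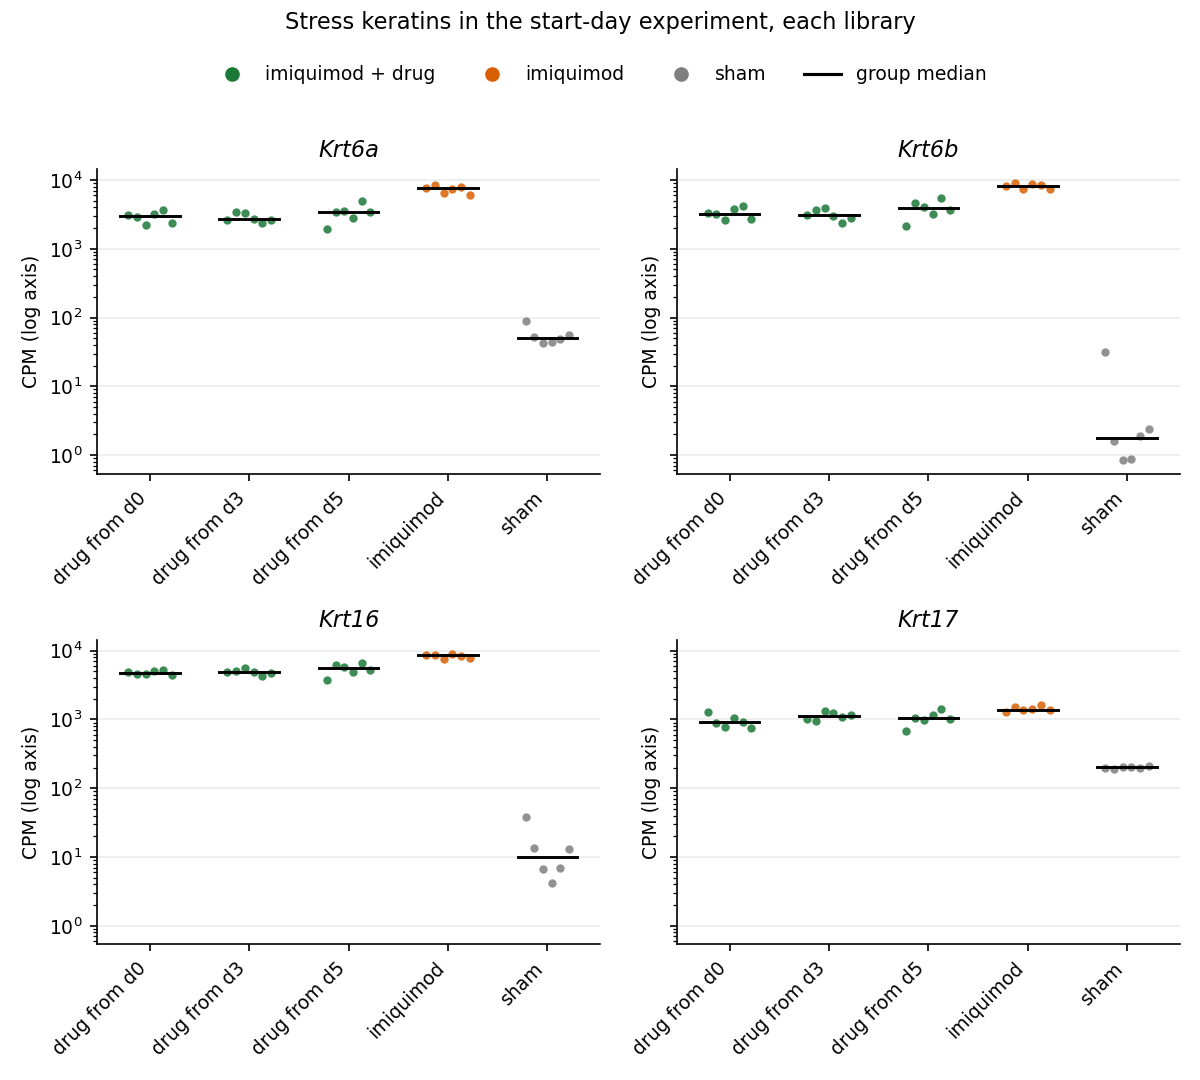
CPM (log axis) of the 4 stress keratins in each library of the start-day experiment, by group (drug from day (d) 0, 3 or 5, imiquimod, sham). Points are libraries and bars group medians. For Krt6a, Krt6b and Krt16 the drug groups lie between the imiquimod and the sham groups with no overlap.

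No difference among the start days was called for any member (edgeR F test, adjusted p = 0.68 to 0.95), a test in which 1 gene in all, 0.00542%, was called. All 4 members were called higher than sham in each of the 6 drug groups, where 24.2%, 31.1% and 34.2% of all genes were called higher at days 2, 5 and 8 and 36.7%, 36.6% and 37.4% from days 0, 3 and 5. At day 2 the lowest drug-treated library still lay under the highest sham library for Krt6a (208 against 382 CPM), Krt6b (60.7 against 294 CPM) and Krt17 (278 against 342 CPM). The log2 difference of drug over sham at that day was 2.85 for Krt6a, 2.505 ± 0.81 for Krt6b (adjusted p = 0.011), 3.81 for Krt16 and 0.99 for Krt17. The Krt6b call rests on drug library 17, which held 976 CPM, and its adjusted p was 0.11 without it and 0.18 in a fit of the compared groups alone. Without sham library 5 the day 2 differences were 3.91, 6.81, 5.12 and 1.14, and all 4 were called. At day 5 the 4 differences were 5.92, 10.72, 8.45 and 2.33, and at day 8 they were 5.96, 9.81, 8.04 and 2.38. From day 0 they were 5.69, 9.06, 8.45 and 2.23, from day 3 they were 5.67, 8.99, 8.496 and 2.49, and from day 5 they were 5.91, 9.28, 8.64 and 2.39. Without sham library 1 they were 5.87, 11.07, 9.07 and 2.22 from day 0, 5.85, 11.001, 9.11 and 2.49 from day 3, and 6.09, 11.29, 9.25 and 2.38 from day 5, all called.

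**Figure D3:**
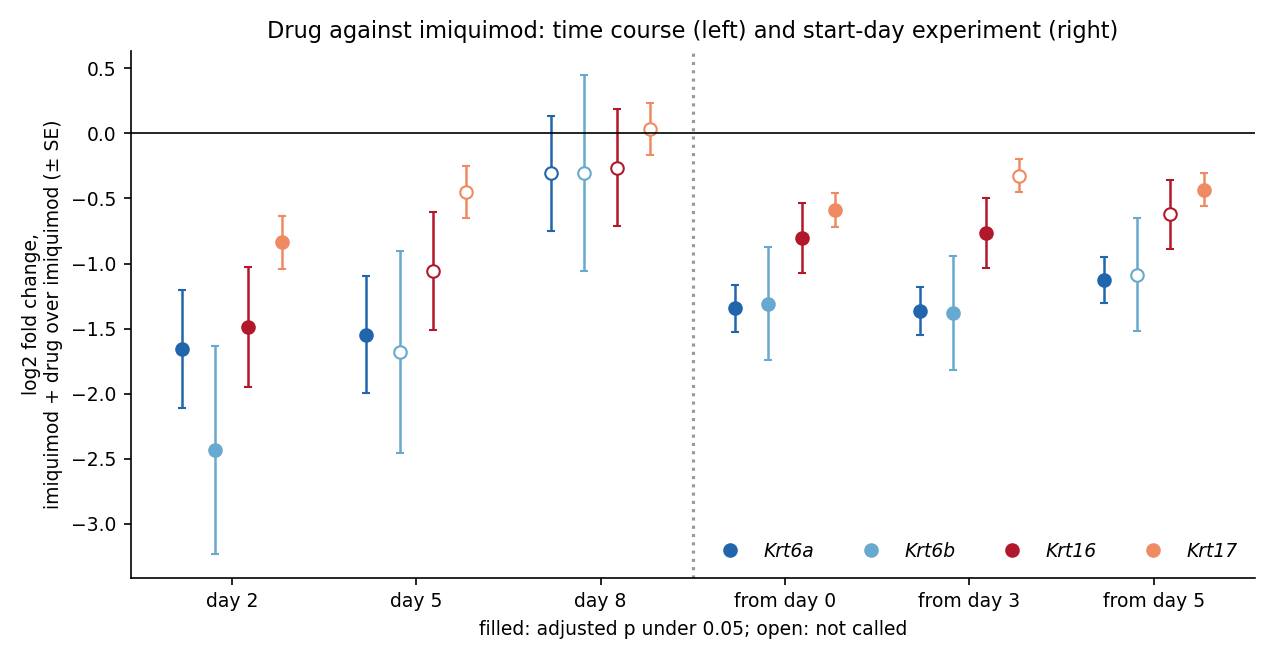
Log2 fold change of imiquimod with the drug over imiquimod alone (imq) for the 4 stress keratins, in 6 comparisons, with bars of 1 standard error. Filled points have an edgeR adjusted p under 0.05; Krt6a is filled in all comparisons but day 8 (-0.31), and Krt17 stays nearest to 0 at days 2 and 5 (-0.84 and -0.45).

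The drug comparison at day 8 of the time course and that from day 0 of the start-day experiment describe nearly the same treatment by the labels, and their Krt6a differences from imiquimod were -0.31 and -1.34. In a joint fit of both experiments, with each drug group set against the imiquimod group of its own experiment, the differences of differences lay between 0.53 and 1.03 and were not called for any member (adjusted p = 0.20 to 0.69), where 0.828% of all genes were called. At day 8 Krt6a averaged 3465 ± 1226 CPM in drug-treated ears and 4283 ± 903 CPM in imiquimod ears (SD, n = 6 each). In the start-day experiment it averaged 2889 ± 546 CPM in ears with the drug from day 0 and 7335 ± 859 CPM in imiquimod ears (SD, n = 6 each). These levels were scaled in separate tables.

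The members did not change by equal factors. Imiquimod shifted the balance of the type II pair toward Krt6b, which made up a median of 48.2% of the Krt6a and Krt6b counts in imiquimod ears at day 5, against 2.87% in sham ears. As a difference of mean log2 ratios, Krt6b over Krt6a was higher in imiquimod than in sham ears by 3.22 at day 2 (exact permutation test, two-sided, adjusted p over 30 ratio tests = 0.018), 4.87 at day 5 (0.0075) and 4.62 in the start-day experiment (0.0041). Without sham library 5 the day 2 difference was 3.96 (0.0038), and without sham library 1 that of the start-day experiment was 5.22 (0.0041), in settings chosen after the values were seen. In drug-treated ears at day 2 the median share of Krt6b was 23.4%, against 35.1% in imiquimod ears, and its ratio to Krt6a was lower by 0.87 on the log2 scale (a difference of -0.87, exact permutation adjusted p = 0.016). In the other 5 drug comparisons the Krt6b to Krt6a ratio differed from imiquimod by -0.21 to 0.03 and was not called. The smallest p these tests can give is 0.0022 for 6 against 6 libraries and 0.0048 for 6 against 4.

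Both type I keratins stood higher relative to Krt6a in drug-treated than in imiquimod ears, Krt17 in all 6 comparisons and Krt16 in 4. Krt16 over Krt6a was higher in drug-treated than in imiquimod ears by log2 0.55 at day 5, 0.55 from day 0, 0.60 from day 3 and 0.53 from day 5 (exact permutation adjusted p = 0.0041 each). At day 2 and day 8 the differences of 0.25 and 0.06 were not called (0.17 and 0.63). Krt17 over Krt6a was higher by 0.92 at day 2 (0.040), 1.16 at day 5 (0.0041) and 0.35 at day 8 (0.0097), and by 0.75, 1.04 and 0.71 from days 0, 3 and 5 (0.0041 each). A ratio shows unequal change and not which of its 2 genes moved, and Krt6a is uncertain as a single gene because of Krt6b.

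**Figure D4:**
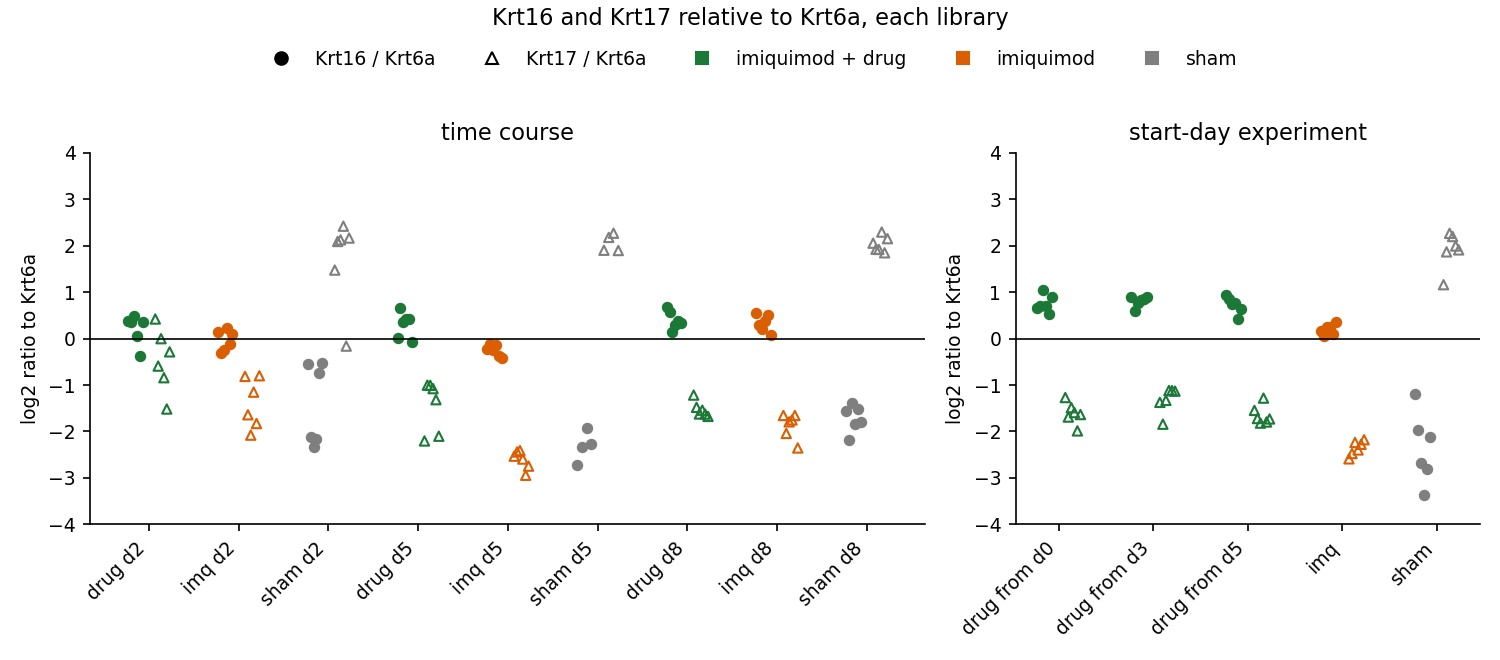
Log2 ratio of Krt16 and Krt17 CPM to Krt6a CPM in each library, by group (d is day, imq imiquimod). Points are libraries. Against sham ears, Krt16 gains on Krt6a in imiquimod ears and Krt17 loses. Krt17 over Krt6a lies higher in drug-treated than in imiquimod ears at day 5 by 1.16.

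The levels were also set against the basal keratinocyte markers. On that scale Krt6a, Krt6b and Krt16 were called lower with the drug at every day and start but day 8. These calls come from an exact permutation test of the compared groups, adjusted over 40 tests, and not from edgeR with all genes. By edgeR, Krt6b and Krt16 were not called at day 5 or from day 5. The day 2 tests on this scale were not repeated without the imiquimod libraries on which the edgeR calls of day 2 depend. Per summed CPM of Krt5 and Krt14, Krt6a was lower in drug-treated than in imiquimod ears by log2 differences of -1.65 at day 2, -1.45 at day 5, -1.17 from day 0, -1.17 from day 3 and -0.99 from day 5 (exact permutation adjusted p over 40 tests = 0.024 at day 2 and 0.0039 in the other 4). Krt6b differed by -2.52 at day 2 (0.012), -1.67 at day 5, -1.14 from day 0, -1.20 from day 3 and -0.96 from day 5 (0.0039 in these 4). Krt16 differed by -1.41 at day 2 (0.0090), -0.90 at day 5, -0.62 from day 0, -0.57 from day 3 and -0.46 from day 5, also called in all 5. Krt17 per marker was called at day 2 (-0.74, adjusted p = 0.017) and from day 0 (-0.43, 0.022) and not at day 5 (-0.29, 0.22), from day 3 (-0.13, 0.27) or from day 5 (-0.28, 0.089). At day 8 none of the 4 was called (-0.36 to 0.03). Krt14 was itself called lower in drug-treated ears at day 5 (log2 -0.39) and at all 3 start days (-0.38, -0.41 and -0.35), while Krt5 was not called at day 5.

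The other keratins were counted in lists made with earlier results of these data known. Several of the 7 suprabasal keratins went the other way from the stress keratins under the drug. At day 5, 6 of 7 were called higher than imiquimod and 0 lower (median log2 1.12). At day 8, 3 of 7 were called higher (0.48), and from days 0, 3 and 5 it was 5, 5 and 6 of 7 (0.80, 0.87 and 0.84). The median over all genes tested lay between 0.00 and 0.02 in these comparisons, and 18.3%, 1.22%, 18.2%, 18% and 15% of all genes were called higher at day 5, at day 8 and from days 0, 3 and 5. Krt2, a keratin of the upper spinous and granular layers, averaged 15235 CPM in drug-treated ears at day 5 and 4683 CPM in imiquimod ears (log2 1.70 ± 0.24, adjusted p = 4.9e-07), and it was higher by 2.41 from day 0. Krt10, the main type I keratin above the basal layer, was higher by 1.12 ± 0.15 at day 5 (2.9e-07) and 0.80 ± 0.13 from day 0 (3.9e-05). Krt1 did not follow throughout. Its means in drug-treated and imiquimod ears were 2164 and 2728 CPM at day 2 and 15597 and 18700 CPM at day 8. At day 5 they were 10438 and 9401 CPM. With the drug from days 0, 3 and 5 Krt1 averaged 18817, 21529 and 21518 CPM, against 18432 CPM in imiquimod ears. Imiquimod alone, against sham at day 5, lowered 6 of the 7 suprabasal keratins and raised 1, Krt1, by log2 3.92. At that day 35.9% of all genes were called lower and 34.6% higher. The summed level of the 7 averaged 23621 CPM in imiquimod and 25600 CPM in sham ears at day 5. On other days it was higher in imiquimod ears, at 34449 against 22465 CPM at day 2 and 39803 against 25708 CPM at day 8. In the start-day experiment it was 35671 CPM in imiquimod and 17960 CPM in sham ears. At day 2, 0 of 7 suprabasal keratins were called against imiquimod (median 0.26), where 6.9% of all genes were called higher and 9.61% lower. The stress keratin calls of day 2 were lost without imiquimod libraries 9 and 11 and in a fit of the compared groups. An order in time between the keratin classes therefore cannot be read from that day.

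**Figure D5:**
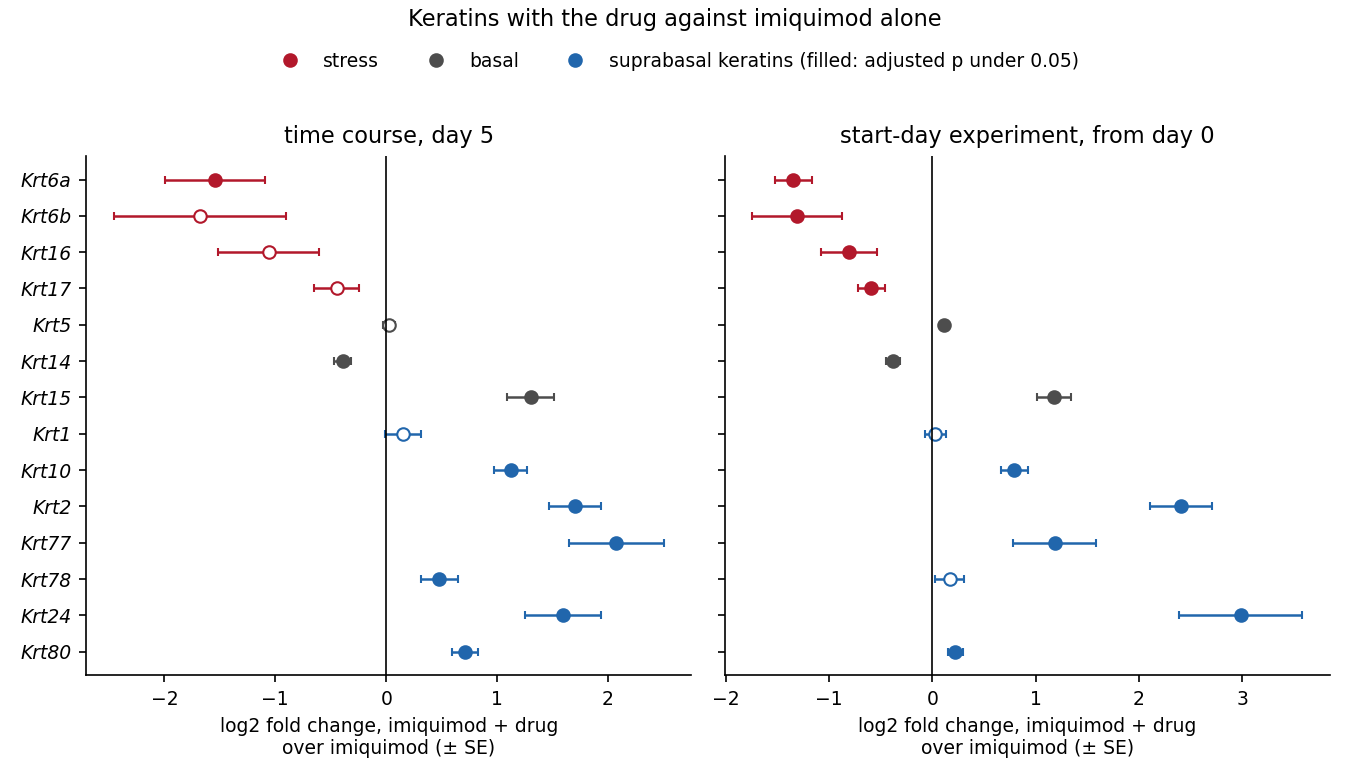
Log2 fold change of imiquimod with the drug over imiquimod alone for the stress keratins and for listed basal and suprabasal keratins. Panels show day 5 and the drug from day 0, with 1 point per gene and bars of 1 standard error. Filled points have an edgeR adjusted p under 0.05; at day 5 the stress keratins lie below 0 and 6 of 7 suprabasal keratins are called above 0.

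Among the 3 basal keratins, Krt15, a marker of basal and follicle bulge cells, was called higher in drug-treated than in imiquimod ears in all 6 comparisons, by log2 0.59, 1.30 and 0.85 at days 2, 5 and 8 and 1.18, 1.15 and 0.90 from days 0, 3 and 5. Imiquimod and sham ears differed in Krt15 by log2 -3.80 at day 5. Of the 10 hair follicle sheath keratins 7 were tested, and Krt79, found in sebaceous duct cells, was higher in drug-treated than in imiquimod ears by 1.03 at day 5 and 1.12 from day 0. Krt75, the type II keratin of the companion layer and a close relative of Krt6, differed by -0.54 from day 0 (called lower) and was not called at day 5 (0.09). Of the 5 simple epithelial keratins, 4 were called lower in imiquimod than in sham ears at day 5, where 35.9% of all genes were. Among them Krt7 differed by -2.49 and Krt8 by -2.04. With the drug, 1 of 5 was called higher than in imiquimod ears at that day, where 18.3% of all genes were. Of 6 proteins that link keratin filaments to cell junctions or to each other, 1 was called higher and 1 lower with the drug at day 5 (median -0.02). The shares of all genes called at that day were 18.3% higher and 17.2% lower.

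Ligands known to act on stress keratins in keratinocytes were counted next. Of 15 listed ligands, 13 were called higher and 0 lower in imiquimod than in sham ears at day 5 (median log2 4.42), where 34.6% of all genes were called higher. In drug-treated against imiquimod ears, 0 were called higher and 7 lower at day 2 (median -0.80), 1 and 6 at day 5 (-0.68), 0 and 0 at day 8 (0.05), 0 and 10 from day 0 (-1.01), 1 and 7 from day 3 (-0.72) and 1 and 6 from day 5 (-0.41). The shares of all genes called lower were 9.61%, 17.2% and 0.335% at days 2, 5 and 8 and 16.9%, 16.4% and 12.7% from days 0, 3 and 5. Over all genes, 3100 were called in either direction at day 2, and 7 without imiquimod libraries 9 and 11, a loss that also bears on the day 2 counts and values of the ligands and regulators. Il19, an IL-20 family cytokine, averaged 7.38 CPM in drug-treated ears at day 5 and 37.2 CPM in imiquimod ears (log2 -2.33 ± 0.54, adjusted p = 7.2e-04), and differed by -2.11 ± 0.32 from day 0. Il17f, a cytokine of Th17 and gamma delta T cells, differed by -1.61 at day 5 (0.0027) and -1.18 from day 0 (0.0010). Il22 differed by -0.98 at day 5 (0.096, not called) and by -1.11 from day 0 (0.0017). At day 2 both were low, with Il17f at 0.0491 to 0.329 CPM in drug-treated ears and 0.154 to 3.35 CPM in imiquimod ears, and Il22 at 0 to 0.167 CPM in drug-treated ears and 0 to 2.89 CPM in imiquimod ears, with imiquimod library 11 the highest for both. Il24, of the IL-20 family, differed by -2.64 at day 5 (0.021) and -2.31 from day 0 (0.0017). Tgfa, an EGF receptor ligand made by keratinocytes, differed by -0.92 ± 0.17 at day 2 (8.0e-04), -0.65 at day 5 (0.0019) and -0.67 from day 0 (4.3e-05).

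Of 11 listed receptors, 2 were called higher and 5 lower with the drug at day 5, where 18.3% of all genes were called higher and 17.2% lower. Il17ra, a chain of the IL-17 receptor, differed from imiquimod by log2 -0.71 ± 0.08 (adjusted p = 1.9e-08), and Osmr, the oncostatin M receptor, by -0.73 (6.9e-06). Il20ra and Il20rb, the chains of an IL-20 receptor, were higher by 0.78 and 0.81. At day 8 none of the 11 was called. Of 10 listed regulators, 0 were called higher and 4 lower at day 5 and 0 and 3 at day 2, where 6.9% of all genes were called higher and 9.61% lower. Stat3, which carries signals of the IL-20 and IL-6 families, differed by -0.39 at day 2 (0.0010) and -0.32 at day 5 (9.0e-04). Nfe2l2, the antioxidant factor NRF2, differed by -0.41 on both days (0.0020 and 2.5e-04), and Nfkbiz, an IL-17 target that acts in the nucleus, by -0.30 (0.022) and -0.35 (0.0025).

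Markers of other cells moved with these comparisons. The summed level of 4 neutrophil markers (Csf3r, Cxcr2, Mmp8 and Ngp) ran from 4.91 to 11.98 CPM in drug-treated ears and from 10.1 to 43.7 CPM in imiquimod ears at day 2, from 16.2 to 92.6 CPM in drug-treated ears and from 90.7 to 181 CPM in imiquimod ears at day 5, and from 39.5 to 100.2 CPM in drug-treated ears and from 48.3 to 70.8 CPM in imiquimod ears at day 8. Of the 3 neutrophil markers tested, 3 were called lower with the drug at days 2 and 5 and 0 at day 8, and 3, 3 and 2 from days 0, 3 and 5. Of 4 macrophage markers, 4 were called lower at day 5 and 3 from day 0. Of 4 fibroblast markers, 4 were called lower at day 5 and 1 from day 0. Of all genes tested, 9.61%, 17.2% and 0.335% were called lower with the drug at days 2, 5 and 8. From days 0, 3 and 5 the shares called lower were 16.9%, 16.4% and 12.7%. Adipocyte markers were called higher with the drug at day 5 for 3 of 3, and muscle and cartilage markers for 1 of 3 each. At that day 18.3% of all genes were called higher. The 6 keratinocyte markers had medians of 0.00 to 0.05 in the 6 drug comparisons. Besides Krt14, called lower as given above, Krt5 (log2 0.12 from both day 0 and day 3) and Trp63 (0.13 and 0.16) were called higher with the drug from those days. Their sum ran from 27667 to 33490 CPM in drug-treated ears and from 31565 to 35696 CPM in imiquimod ears at day 5. Cell cycle markers were lower with the drug for 3 of 4 at day 2 and 2 of 4 at day 5. The part of these cell types in the keratin differences was not tested.

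Libraries of a group that were high for 1 member tended to be high for the others, less so for Krt17 in the start-day experiment. After the group means were removed, and without the sham libraries, Pearson's r of log2 CPM was 0.95 for Krt6a and Krt6b, 0.97 for Krt6a and Krt16, 0.93 for Krt6b and Krt16, 0.82 for Krt6a and Krt17, 0.80 for Krt6b and Krt17 and 0.86 for Krt16 and Krt17 over 36 time course libraries. Over 24 start-day libraries the same values were 0.96, 0.91, 0.97, 0.67, 0.64 and 0.63. With the sham libraries, over all 30, r was 0.18 for Krt6b and Krt17 and 0.17 for Krt16 and Krt17. Among 12951 other genes, the ones whose levels over the 52 time course libraries were most like those of Krt6a were Gsta4 (r = 0.996), a glutathione transferase, Has3, a hyaluronan synthase, Sprr2h, P4hb and Stfa1. Krt6b lay nearest to Stfa1 (0.991), a cystatin-type protease inhibitor, followed by Cstdc5, Gpr15lg, Cdhr1 and Sprr2h. Krt16 lay nearest to Sprr1b (0.992), a cornified envelope precursor, followed by Gpr15lg, Cstdc5, Sprr2h and Cdhr1. Krt17 lay nearest to Gjb2 (0.985), a gap junction protein, followed by P4hb, Sprr2e, Sprr2f and Stat3 (0.981). When a mean log2 CPM of at least 3 was required, 3 of the 5 genes named for Krt17 stayed among its nearest. For Krt6b and Krt16 4 stayed, and for Krt6a all 5. Over the 30 start-day libraries r was 0.995 for Gsta4, 0.996 for Stfa1, 0.991 for Sprr1b and 0.982 for Gjb2 with the same partners. These values carry no test: the points of a group share their treatment, the groups differ by imiquimod, and the Sprr2, Stfa and Cstdc families hold near-identical copies of their own.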

How the data were processed

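Per gene, the deposited values are estimated counts from salmon, per the file headers and names, made against GRCm39 per the submitters' processing notes; the salmon version, annotation and strand setting were not given in the sources used here. All 82 libraries were matched to columns by title, with 0 columns left over. Counts were rounded and fitted with edgeR 4.0.16 in R 4.3.3 (filterByExpr, TMM, robust quasi-likelihood F test, all groups of an experiment in 1 fit, a joint fit for the comparison between experiments), with Benjamini-Hochberg adjustment over all genes tested. Log2 CPM used a prior count of 2. Ratios and levels per Krt5 and Krt14 were compared by exact permutation over libraries, two-sided. Alternatives used limma 3.58.1 (voom), DESeq2 1.42.0, other scalings and filters, and libraries left out in turn. The count test was checked first on simulated data.

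The members and lists were chosen with earlier results of these data known. The 4 members were named in every comparison; from a list, up to 4 called genes by smallest adjusted p and any ligand or receptor were named, and for each member the 5 genes of highest correlation. Transcripts came from GENCODE vM21 (GRCm38), used for lengths, sequence and gene order only. Figures used matplotlib 3.10.9.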

Additional observations from a re-analysis of the deposited data

Results flagged for a closer look

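In sham ears of day 2, library 5 lay far above the other 5 libraries for all 4 members, at 382 CPM of Krt6a, 294 CPM of Krt6b, 227 CPM of Krt16 and 342 CPM of Krt17. In sham ears of the start-day experiment, library 1 lay far above the rest for 3 members, at 89.2 CPM of Krt6a, 31.5 CPM of Krt6b and 38.8 CPM of Krt16. In drug-treated ears of day 2, library 17 held 976 CPM of Krt6b, far above the other 5. In imiquimod ears of day 5, library 27 was far below the rest for Krt16, at 5904 CPM. These 9 values came from 56 combinations of a member and a group, and chance alone marks about 1 in 20 groups as holding such a distant library. The effect of imiquimod differed among days for all 4 members by the edgeR F test, with adjusted p of 0.0027 for Krt6a, 1.3e-04 for Krt6b, 3.6e-05 for Krt16 and 0.037 for Krt17.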

How the results depend on the processing

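No paired analysis was possible because library numbers run on through an experiment and no 2 groups share one. The calls of imiquimod over sham held for all 4 members under every alternative that gave a value (DESeq2, RLE scaling, no filter, a 1 CPM filter, voom with sample weights, a fit of the compared groups, Krt6a and Krt6b summed, and each library left out), and the Krt6a calls against imiquimod at day 5 and at all start days held as well. All 30 ratio tests, called or not, had the same outcome with a prior count of 5. The cause of the changes below was not tested. For the drug against imiquimod at day 2, Krt6b was -2.43 (adjusted p = 0.063) with no filter. In a fit of the compared groups Krt6a was -1.67, Krt6b -2.44, Krt16 -1.49 and Krt17 -0.84, and without imiquimod libraries 9 and 11 they were -1.06, -1.57, -0.95 and -0.60, none called. At day 5 calls were gained: Krt6b with both Krt6 genes summed (-1.61), in the compared groups (-1.68) and with voom (-1.87), Krt16 in the compared groups (-1.06) and with voom (-1.10), and Krt17 with voom (-0.45). From day 0, Krt16 was lost with DESeq2 (-0.82, adjusted p = 0.066). From day 3, Krt16 was lost with no filter and with DESeq2 (-0.77 in both), while Krt17 was gained with RLE scaling (-0.34), the 1 CPM filter (-0.33), the compared groups (-0.33), voom (-0.34) and DESeq2 (-0.34). From day 5, Krt6b was gained with the sum (-1.11), the compared groups (-1.09) and voom (-1.08), and Krt16 with the compared groups (-0.63) and voom (-0.61). DESeq2 gave no adjusted p for Krt6b in the start-day experiment. Set against Trp63, Dsp, Cdh1 and Perp, Krt17 was called at day 5 (-0.53), from day 3 (-0.37) and from day 5 (-0.50). Drug over sham at day 2 was not called for Krt6b in the compared groups (2.496). For the effects among days, adjusted p was 0.36 for Krt6b and imiquimod with voom, 0.079 for Krt17 and imiquimod with no filter, and 0.0325 for Krt6b and the drug with voom.

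Among the days of 1 treatment, sham day 5 against day 2 was called for Krt6b with DESeq2 (-5.10) and for Krt16 with the 1 CPM filter (-2.49) and DESeq2 (-2.49). Sham day 8 against day 2 lost its call for Krt6b in the sum (-1.41) and the compared groups (-3.84) and turned positive with voom (0.17) and without library 5 (0.47), and Krt16 lost it with no filter (-1.73), the compared groups (-1.74) and voom (-0.38). Imiquimod day 8 against day 5 was called in the compared groups for Krt6a (-1.03), Krt6b (-1.04), Krt16 (-0.45) and Krt17 (-0.31), and with voom for Krt6a (-1.03) and Krt6b (-1.05). Imiquimod day 8 against day 2 was gained with voom for Krt6a (1.13) and Krt6b (1.88) and without libraries 9 and 11 for Krt6a (1.43) and Krt6b (2.20), and lost with no filter for Krt16 (1.26) and Krt17 (0.49) and in the compared groups for Krt17 (0.49).

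Leaving out single libraries left 1620 results on their side of the threshold, ended 35 calls, added 14 and turned 1 round. Differences of an effect between days were counted apart, with 546 unchanged, 11 calls ended and 3 added. The drug against imiquimod at day 2 ran from -3.37 to -1.94 for Krt6b, with the call lost without imiquimod library 9 or 11 or drug library 13, 14, 15, 16 or 18, and from -1.74 to -1.23 for Krt16, lost without imiquimod library 9 or 11 or drug library 13 or 15. At day 5 Krt16 ran from -1.21 to -0.93, gained without library 36, and Krt17 from -0.55 to -0.33, gained without library 33. From day 3, Krt16 ran from -0.80 to -0.73, lost without library 23 or 24, and Krt17 from -0.37 to -0.28, gained without library 7, 21 or 22. Krt6b, drug over sham at day 2, ran from 1.57 to 6.81, lost without drug library 17. Adjusted p among days ran from 3.98e-05 to 0.058 for Krt6b and imiquimod, from 0.010 to 0.093 for Krt17 and imiquimod, and from 0.042 to 0.22 for Krt17 and the drug. Imiquimod day 8 against day 2 ran from 1.14 to 1.52 for Krt16 and 0.38 to 0.66 for Krt17. Sham day 5 against day 2 ran from -5.36 to -0.78 for Krt6b and -2.72 to -1.18 for Krt16, and sham day 8 against day 2 from -4.11 to 0.47 for Krt6b and -1.97 to -0.42 for Krt16. At day 8 the drug changed 293 of all genes, against 147 with no filter, 820 with voom and 506 with DESeq2, and among days 1500, against 703 with no filter. Depth limits mainly the sham level of Krt6b, which was as low as 0.457 CPM in a library.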
